A study of Homo sapiens with 4 samples.

Results

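The cytosolic ribosomal protein genes encode the proteins of the large (60S) and small (40S) subunits of the ribosome that translates nuclear messages. They were taken from the deposited expression table as every row with an Ensembl identifier whose symbol was RPL or RPS with a number and at most a letter A or X, together with RPLP0, RPLP1, RPLP2 and RPSA. This gave 77 genes, 46 of the 60S and 31 of the 40S subunit, of 17755 genes listed. Pseudogenes, RPL or RPS symbols with an L suffix and ribosomal protein kinases were left out by name. Their levels were read in 4 poly(A)-selected RNA libraries from the human melanoma cell lines SK-MEL-28 and A375. Each line was transfected either with the control siRNA labelled siNC or with an siRNA labelled siLINC00622, against the long noncoding RNA LINC00622, in serum-free medium for 6 h, and was then kept for 24 h in medium with serum. Each of the 4 conditions was 1 library, so a difference between siLINC00622 and siNC within a line had no replicate check, and the intervals given for it cover counting error only.

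Ribosomal protein genes are among the most actively transcribed genes of a growing cell, and their products are made in nearly equal numbers, since each ribosome holds about one copy of most of them. Their messages begin with a terminal oligopyrimidine (TOP) tract, a C at the cap followed by an unbroken run of C and U. Through this tract the mTOR pathway and the RNA-binding protein LARP1 set how well the messages are translated. The study asked what silencing LINC00622 does in melanoma cells and followed RRAGD, a Rag GTPase that carries amino acid signals to mTOR.

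The TOP tract was visible in the start sites of the RefSeq annotation (build GRCh38.p14), which listed 77 starts for 62 of the 77 genes. The 7 windows below were chosen because the results turn on these genes, and each covers 15 bases before and 15 bases from the listed start. Capitals mark the C and the pyrimidines that follow it, written as DNA of the gene's own strand.

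RPS6 (chr9:19380222-19380251, minus strand): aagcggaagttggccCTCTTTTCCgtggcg
RPS25 (chr11:119018329-119018358, minus strand): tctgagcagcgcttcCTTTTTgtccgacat
RPSA (chr3:39406705-39406734, plus strand): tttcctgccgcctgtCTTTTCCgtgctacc
RPLP2 (chr11:809952-809981, plus strand): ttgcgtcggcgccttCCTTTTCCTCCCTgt
RPL31 (chr2:101002274-101002303, plus strand): acaatccttcgcgctCTTCCTTTCCaactt
RPL26 (chr17:8383179-8383208, minus strand): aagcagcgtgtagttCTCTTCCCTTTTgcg
RPL4 (chr15:66504841-66504870, minus strand): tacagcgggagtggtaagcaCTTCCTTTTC

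In 6 of these windows the run began at the listed start itself. In RPL4 it began at position 6 from the listed start and went on past the window. A C followed by at least 4 pyrimidines stood exactly at a listed start of 46 of the 62 genes (74.2%), against 1404 of 27305 genes in the whole table (5.14%). When the C was allowed within 5 bases of the start on either side, the counts were 53 of 62 genes (85.5%) and 25.2% of all genes. Literal hexamers were sought on the gene's strand within 5 bases of the start, and 1 start could hold more than 1 of them, since they overlap. CTCTTT was present in 12 of the 62 genes and in 0.754% of all genes. CCTTTC was present in 16 (all genes 0.868%), and 9 genes held CTTTTC (all genes 0.78%). Over the 300 bases from 250 before to 50 after a start, on either strand, CCGGAAG was found in 22 of the 62 genes (35.5%, all genes 12.2%), AAGATGGC in 6 (9.68%, all genes 3.52%), GGGCGG in 36 (58.1%, all genes 48.3%) and TATAAA in 5 (8.06%, all genes 14%). These are matches of letters and not sites of binding.

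**Figure D1:**
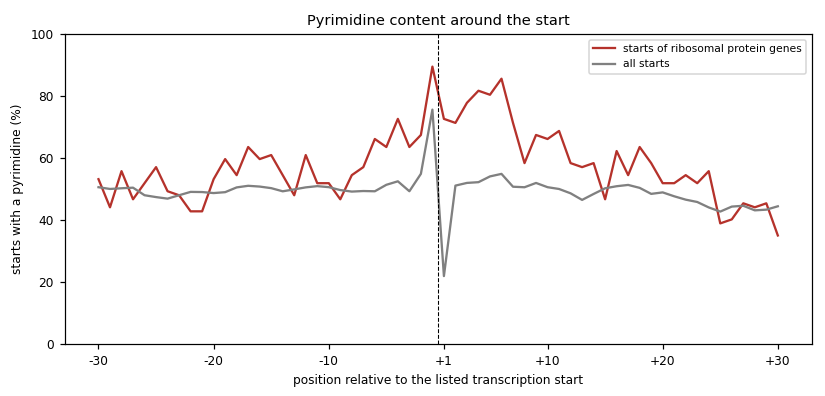
Percent of transcription starts with a C or T at each position from 30 bases before to 30 bases after the RefSeq start, for the 77 starts of ribosomal protein genes (red) and all 35116 starts (grey). At position +1 the share was 72.73% in ribosomal protein genes and 21.94% over all starts, and at position +6 it was 85.71% and 54.96%.

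The libraries held between 31269923 and 36384819 counts. LINC00622 had 309 counts in SK-MEL-28 siNC and 135 in SK-MEL-28 siLINC00622, and 135 in A375 siNC and 86 in A375 siLINC00622. RRAGD had 3313 and 731 counts in SK-MEL-28 against 515 and 234 in A375, in the same order. Both genes were lower with siLINC00622 in each line. For LINC00622 this is the direction the labels give, and for RRAGD it is the direction the paper reports. Of the melanocyte markers, PMEL had 114297 and 142181 counts in SK-MEL-28 but 257 and 314 in A375, and TYR had 8952 and 10452 counts against 17 and 22, while SOX10 had at least 15109 counts in every library. A375 thus held little of the pigment cell messages that SK-MEL-28 held. Among markers of other cells, KRT14 had 494 and 504 counts in A375 and 6 and 2 in SK-MEL-28, EPCAM had 48 to 63 counts in all 4 libraries, and KRT5, PTPRC and PECAM1 had no row. The part of these differences in the levels of ribosomal protein genes was not tested.

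The 77 genes together took 4.03% of all counts in SK-MEL-28 siNC (95% exact binomial interval 4.0228 to 4.0362), 3.799% in SK-MEL-28 siLINC00622 (3.7923 to 3.8051), 5.596% in A375 siNC (5.588 to 5.6042) and 5.695% in A375 siLINC00622 (5.6873 to 5.7024). The share was thus lower in SK-MEL-28 than in A375 under both siRNAs, and between siRNAs it moved by a much smaller amount, down in SK-MEL-28 and up in A375. In bulk RNA such as this, fewer cells that express a gene and less of its RNA per cell cannot be told apart. Per length, as the deposited FPKM (fragments scaled to message length and library size), the median level of the 77 genes was 140.7 and 131.4 in SK-MEL-28 siNC and siLINC00622, and 200.2 and 209.1 in A375 siNC and siLINC00622. Other genes with at least 10 counts had medians between 3.994 and 4.151. Of the 100 genes with the highest FPKM, 24 were ribosomal protein genes in each SK-MEL-28 library, 32 in A375 siNC and 35 in A375 siLINC00622.

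Although the proteins are needed in nearly equal numbers, the listed levels of their messages spanned about 3 orders of magnitude. The middle part of the family was tighter, with lower and upper quartiles of 78.2 and 260.6 FPKM in SK-MEL-28 siNC and 106.8 and 363.6 FPKM in A375 siNC. RPS2, which lines the entry of the mRNA channel, had the highest mean FPKM, with 751.7 and 692.6 in SK-MEL-28 against 1088 and 1076 in A375. It was followed by RPS12 with 820.7 and 795.1 in SK-MEL-28 against 918.1 and 877.5 in A375. RPL8, a protein near the peptidyl transferase centre, had 655.8, 627, 650.7 and 638.8 FPKM in SK-MEL-28 siNC, SK-MEL-28 siLINC00622, A375 siNC and A375 siLINC00622, nearly level over the 4 libraries. RPS27 and RPL41, which encodes the smallest ribosomal protein, came next by mean FPKM, at 515 and 504.5.

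At the other end, RPS10 had 0.787 and 0.661 FPKM in SK-MEL-28 against 1.18 and 1.15 in A375, on counts of 60, 52, 85 and 96. RPL36A had 1.35 and 1.33 FPKM in SK-MEL-28 against 3.07 and 2.75 in A375, and RPL17 had 2.26, 2.6, 3.54 and 2.49. RPS15A was also low, with a mean FPKM of 7.09. These are levels far under those of the rest of the family, although RPS10 is part of every 40S subunit. The 3 lowest, RPS10, RPL36A and RPL17, were the 3 genes of the family that GENCODE 29 shows under a gene joining them to a downstream neighbour on the same strand (RPS10-NUDT3, RPL36A-HNRNPH2 and RPL17-C18orf32). None of the 3 joined genes was listed in the table. Of the downstream partners, C18orf32 had 41 to 66 counts and NUDT3 172 to 244, while HNRNPH2 had 1914 to 4175. Whether reads of these genes were dropped or assigned elsewhere in counting was not tested, so their levels and ratios are uncertain. Processed pseudogenes add to this, since the counting of near-identical copies is not given in the sources used here. The 153 listed pseudogenes named for one of the 77 genes held 40031 to 61261 counts per library, between 2.957% and 3.191% of the counts of the family. For RPS10 the pseudogenes reached 665.4% of its own count, for RPL26 80.99%, for RPL23A 61.38% and for RPS28 30.88%.

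**Figure D2:**
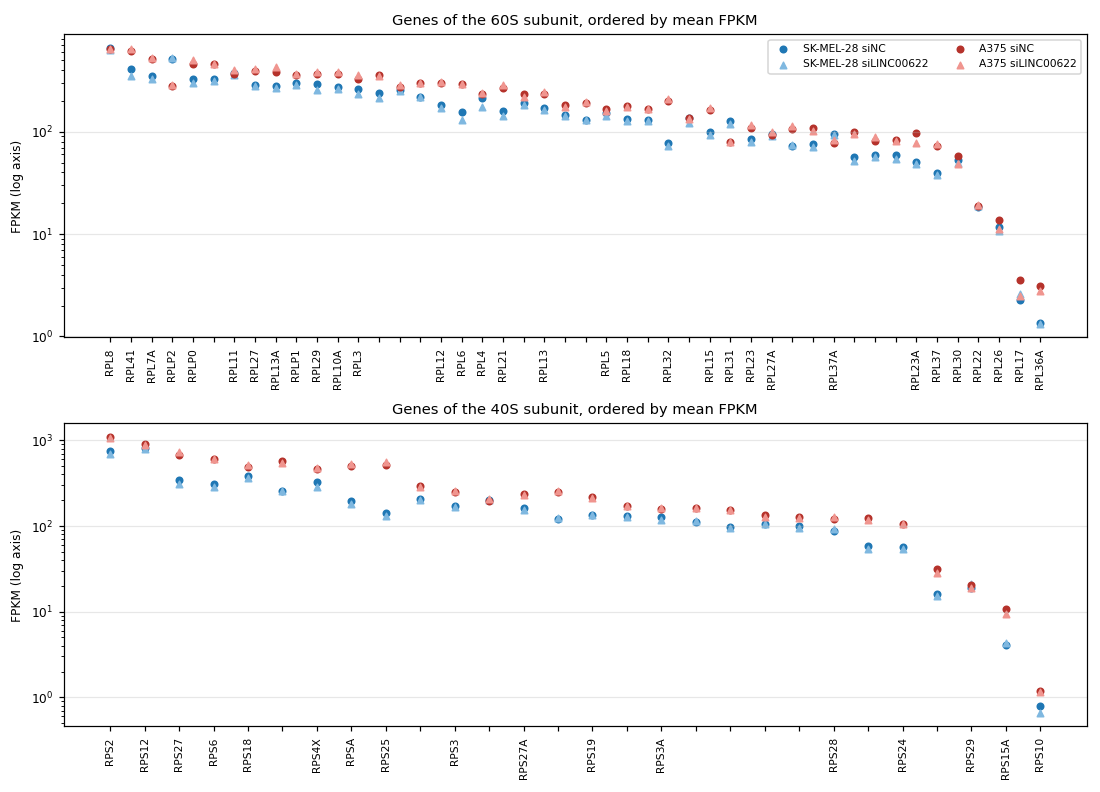
Deposited FPKM (log axis) of the 46 genes of the 60S subunit (top) and of 28 genes of the 40S subunit (bottom) in the 4 libraries, ordered by mean FPKM, with the genes named in the text labelled. The medians lie between 131.4 and 209.1 FPKM, RPS10, RPL36A and RPL17 lie at 0.661 to 3.54, and A375 (red) is above SK-MEL-28 (blue) for most of the family, with RPLP2, RPL31 and RPL37A the other way.

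The genes lie apart in the genome. In GENCODE 29 (GRCh38) the 77 genes were spread over 21 chromosomes, at most 12 on one, chromosome 19. Their messages were short, with a median of 907 bases for the transcript with the longest coding part and 5 exons, against 3096 bases and 9 exons in 12334 other protein-coding genes tested. Their longest annotated 3' UTR had a median of 493 bases, against 1377.5. In 28 of the 77 genes at least 1 gene of a small nucleolar RNA lay inside the gene on its strand, 60 in all.

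The first comparison the design sets is siLINC00622 against siNC in each line. In SK-MEL-28, 61 of the 77 genes had a lower level with siLINC00622 and 16 a higher one, where 50.5% of all 15442 genes with at least 10 counts were lower. The median log2 ratio of the family was -0.0595, beside -0.004 over all genes. In A375 the family did not show this: 32 of 77 genes were lower, where 49.3% of all 16021 genes were lower, and the median log2 ratio was 0.0197, beside 0.0043 over all genes. The difference between the lines was not tested.

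The summed counts of the family gave the same picture. After scaling by TMM (a factor per library from the bulk of its genes), the sum was lower by a log2 of -0.0712 in SK-MEL-28 (counting interval -0.0747 to -0.0677) and higher by 0.0342 in A375 (0.0313 to 0.0371). With 1 library a condition, no replicate spread stands behind either difference. In SK-MEL-28 the medians of the subunits lay close together, at -0.0635 for the 60S and -0.05 for the 40S. The share of lower genes was larger in the 60S, with 40 of 46 (86.96%) against 21 of 31 of the 40S (67.74%). In A375, 14 of 46 genes of the 60S (median 0.0311) and 18 of 31 of the 40S (median -0.0129) were lower.

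No ratio of the family was large. In SK-MEL-28, 1 gene was past 1.2-fold lower (background 19.8% of all genes), 0 were past 1.2-fold higher (background 17.1%) and 0 were past 1.5-fold, the limit used in the study (background 11% in either direction). In A375, 3 genes were past 1.2-fold lower (background 17%), 0 past 1.2-fold higher (background 17.3%) and 0 past 1.5-fold (background 8.86%). The ratios of the family lay close together. Their interquartile range was 0.0986 in SK-MEL-28 against 0.1233 in A375, while other genes with at least 1000 counts had 0.2766 and 0.2616, and those with at least 5000 counts 0.2659 and 0.2514.

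**Figure D3:**
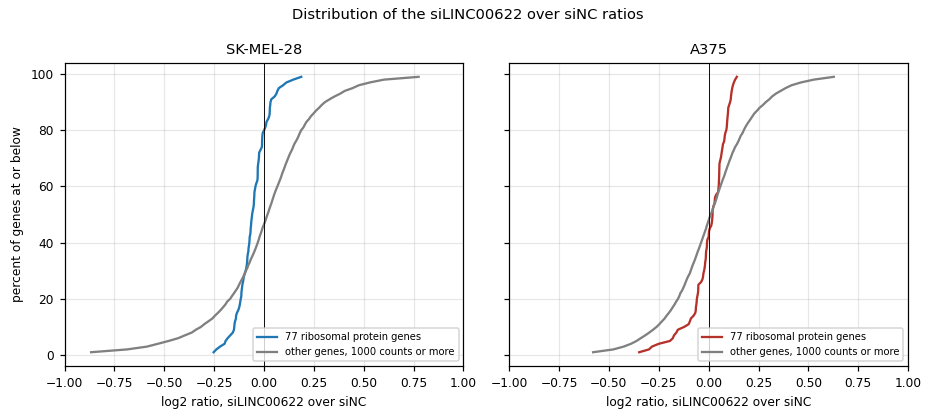
Percent of genes (vertical axis) at or below each log2 ratio of siLINC00622 over siNC (horizontal axis), for the 77 ribosomal protein genes (coloured) and for other genes that reached 1000 counts in either library (grey, 6598 genes in SK-MEL-28 against 6847 in A375). The curve of the family is steeper in both lines, and most of it lies left of 0 in SK-MEL-28, where its median is -0.0595.

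The gene past 1.2-fold lower in SK-MEL-28 was RPL4, which reaches into the exit tunnel of the 60S subunit and whose start is printed above. RPL4 had 211.8 FPKM under siNC, 174.6 under siLINC00622 in SK-MEL-28, a log2 ratio of -0.26 (counting interval -0.29 to -0.24), and 236.5 and 238.1 FPKM in A375, a log2 ratio of 0.0186. RPL4 lay at the limit and was short of it with DESeq2 size factors (-0.2538), with centring on the median of all genes (-0.2605) and with pseudogene counts added (-0.2612). The SK-MEL-28 siLINC00622 library was the lowest of the 4 and the other 3 lay close together. RPL6 followed in SK-MEL-28 with 157.6 and 131.4 FPKM (log2 ratio -0.25), against 290 and 292.2 in A375 (0.0197). RPS10, with 60 and 52 counts, had a ratio of -0.23 whose counting interval ran from -0.80 to 0.32. RPL41 had 407.5 and 351.9 FPKM (log2 ratio -0.20) in SK-MEL-28, but 614 and 644.6 in A375 (0.0792). RPS4X, the X-linked form of the protein eS4, had 327.5 and 284.1 FPKM (-0.19) in SK-MEL-28 against 462.4 and 476.1 in A375 (0.0512). In these genes other than RPS10 the lower value was seen in SK-MEL-28 and not in A375.

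The highest ratio in SK-MEL-28 was that of RPL17, at 0.22 on 183 and 218 counts, with a counting interval of -0.069 to 0.51 that held 0. RPS29, a zinc-binding protein of the 40S head, had 18.73 and 20.96 FPKM and a ratio of 0.18 (0.13 to 0.23). RPS15A, RPS28 and RPL22 had ratios of 0.12, 0.0965 and 0.0691. RPL17, RPS29, RPS15A and RPL22 were among the genes of low level in the family. Over the family, the counting interval lay under 0 for 48 genes in SK-MEL-28, over 0 for 5 and held 0 for 24. Of all genes, 24% had an interval under 0 and 22.9% one over 0. High counts make intervals narrow, and of the 902 genes with at least 5000 counts in each library, 39.4% lay under 0 and 39.4% over 0, against 48 and 5 of the 68 ribosomal protein genes among them.

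In A375 the 3 genes past 1.2-fold lower were RPL17, RPL23A and RPL26. All 3 are among the 8 genes listed around the exit tunnel, of which the other 5 were higher in A375 (median of the 8, 0.0071). RPL17 had 3.54 FPKM with siNC and 2.49 with siLINC00622, on 271 and 222 counts, a log2 ratio of -0.49 (-0.76 to -0.24). The ratio of RPL17 in SK-MEL-28 was on the other side of 0. RPL23A, a docking site of the signal recognition particle, had 96.86 and 78.06 FPKM (log2 ratio -0.30, interval -0.35 to -0.25), and 50.11 and 48.55 in SK-MEL-28 (-0.0317). RPL26 had 13.86 and 11.21 FPKM (-0.30, interval -0.42 to -0.17), and 11.8 and 10.67 in SK-MEL-28 (-0.13). With the counts of its 2 listed pseudogenes added, the ratio of RPL26 in A375 was -0.15. RPL30 was also low, at -0.25. These 4 genes had fewer counts than the median of the family.

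The highest ratios in A375 were those of RPL13A, RPL11, RPLP0, RPL3 and RPS27. RPL13A had 386.4 and 426.9 FPKM, a log2 ratio of 0.15 (0.13 to 0.17), and 278 and 270.5 FPKM in SK-MEL-28 (-0.026). RPL11, which with RPL5 and 5S RNA forms the particle that binds MDM2, had 363.6 and 397.5 FPKM (0.14) in A375 and 378.3 and 358.9 in SK-MEL-28 (-0.0617). RPLP0, the base of the P stalk that recruits translation factors, had 461.1 and 500.8 FPKM (0.13) in A375 and 328.5 and 299.3 (-0.12) in SK-MEL-28. RPL3, near the peptidyl transferase centre, had 329.5 and 356.3 FPKM (0.12) in A375 and 260.6 and 234.2 (-0.14) in SK-MEL-28. RPS27 had 675.4 and 728.1 FPKM (0.12) in A375 and 346.8 and 309.8 (-0.15) in SK-MEL-28. Each of the 5 was lower with siLINC00622 in SK-MEL-28. Over the family, the counting interval in A375 lay over 0 for 37 genes, under 0 for 21 and held 0 for 19. Of all genes, 23.8% lay over 0 and 22% under 0. Among the 902 genes with at least 5000 counts in each library these shares were 42% and 39%, against 37 and 15 of the 68 ribosomal protein genes among them.

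The ratio in A375 moved with the level of the gene. The 9 genes with under 5000 counts in a library had a median log2 ratio of -0.18 in A375, 8 of them lower, while the 68 genes with at least 5000 counts in each had a median of 0.0304, 24 of them lower. In SK-MEL-28 the same groups had medians of -0.007 and -0.0628. Across the 77 genes the log2 mean count and the ratio had r = 0.638 and rho = 0.444 in A375, and r = -0.266 and rho = -0.254 in SK-MEL-28. Within the 68 genes with at least 5000 counts r was 0.372 and -0.368. Genes are not independent replicates, and all points of a line share the same 2 libraries.

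**Figure D4:**
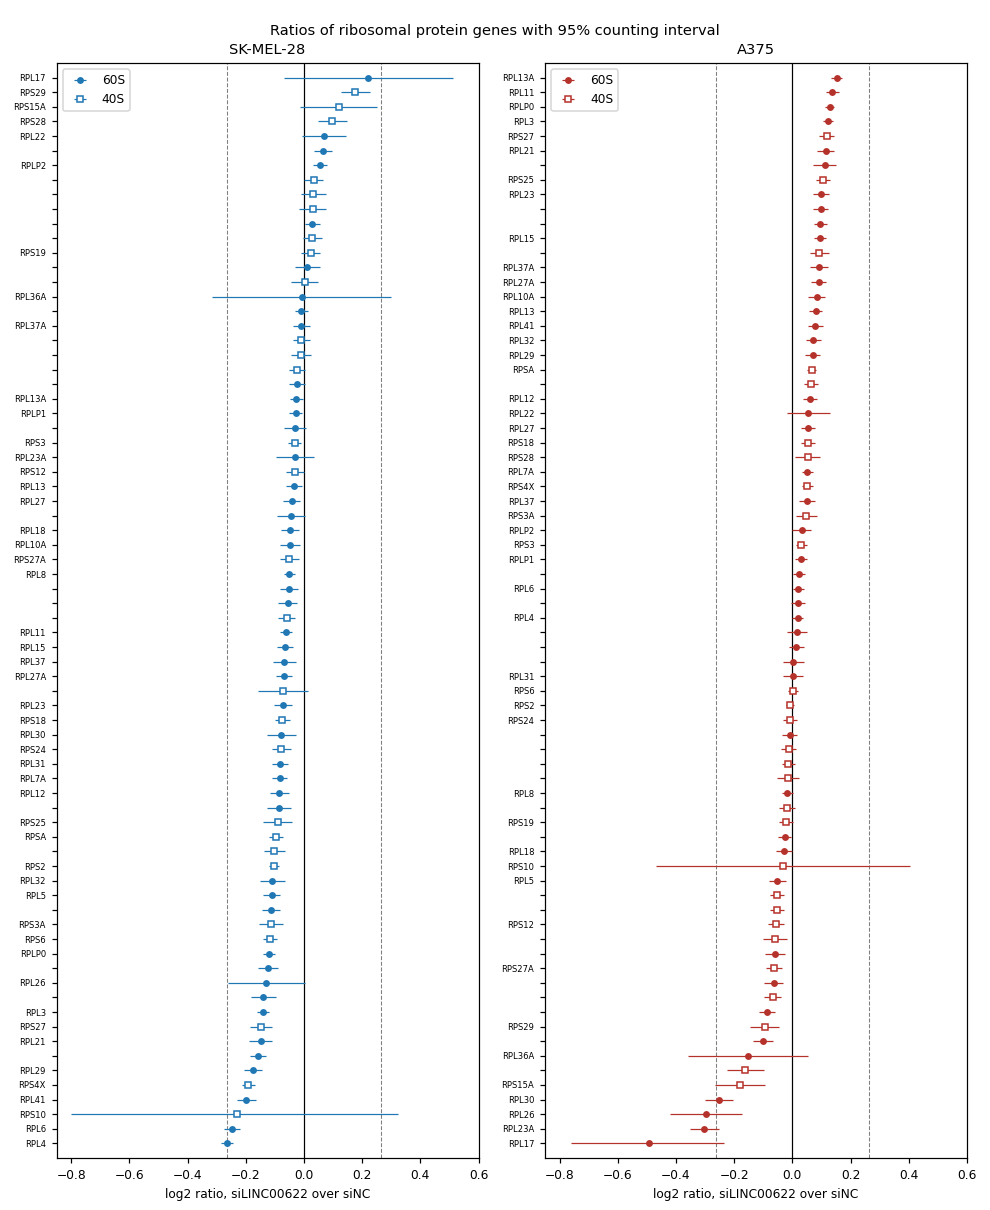
Log2 ratio of siLINC00622 over siNC for 74 of the 77 genes in SK-MEL-28 (left) and A375 (right), ordered within each line, with the genes named in the text labelled, with 95% counting intervals as bars, filled circles for the 60S and open squares for the 40S subunit, and dashed lines at 1.2-fold. In SK-MEL-28 most genes lie left of 0 and RPL4 alone reaches the dashed line, and in A375, RPL17, RPL23A and RPL26 do.

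Set side by side, the lines had no library in common. Of the 77 genes, 24 were lower in both lines (31.2%), where 31.3% of all 14721 genes with at least 10 counts in each line were, so this count was at the background. A further 8 were higher in both, against 30.9% of all genes. The most frequent pattern was lower in SK-MEL-28 and higher in A375, with 37 genes (48.1%), where 19.7% of all genes had it. The other 8 (10.4%) were higher in SK-MEL-28 and lower in A375, where 18.1% of all genes were. The counting intervals lay on opposite sides of 0 in 29 of the 77 genes, where 6.4% of all genes and 18.3% of the 902 with at least 5000 counts in each library had this. In 28 of them the lower side was SK-MEL-28 (3.85% of all genes, 9.87% of the 902), and in 1 it was A375 (2.55% and 8.43%). Across the 77 genes the ratios of the lines had r = -0.308 and rho = -0.187, and over the 68 with at least 5000 counts r = -0.145.

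The fit over both lines used the lines as the replicates of the treatment, with line as a block, which left 1 residual degree of freedom from 2 pairs. In this fit by edgeR's quasi-likelihood test 0 of the 77 genes were called at an adjusted p below 0.05 (Benjamini-Hochberg over 16742 genes), where 0.448% of all genes (75) were. At an unadjusted p below 0.05, 0 of the 77 were found, where 14.5% of all genes were. The same counts of 0 came from DESeq2 and from limma, with 6.97% and 12.9% of all genes at an unadjusted p below 0.05. The smallest p of the family was that of RPL26, with a log2 change of -0.20 over both lines (edgeR adjusted p = 0.4394). It was followed by RPL30 (log2 change -0.16, edgeR adjusted p = 0.4737) and RPL23A (-0.16, edgeR adjusted p = 0.5137). The median change of the family over both lines was -0.0084, with standard errors of 0.0702 to 0.2173 per gene. A change well inside such an error could not have been detected here.

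The members with assigned roles had the following ratios. In the P stalk, RPLP0 had the ratios given above, RPLP1 had -0.0285 in SK-MEL-28 against 0.0297 in A375, and RPLP2 had 0.055 and 0.0325. Of the 5S particle, RPL5 had -0.11 and -0.0515. Around the exit tunnel, 6 of 8 genes were lower in SK-MEL-28 (median -0.042) and 3 of 8 in A375 (median 0.0071). The channel of the mRNA gave 3 of 4 lower in SK-MEL-28 (median -0.0639) and 2 of 4 in A375 (median 0.0116). RPS6, the substrate of the S6 kinases downstream of mTOR, had 310.8 and 283.8 FPKM in SK-MEL-28 (log2 ratio -0.12, interval -0.14 to -0.093) and 611.6 and 608.1 in A375 (0.0007, interval -0.016 to 0.018). RPS27A, made as a fusion with ubiquitin, had -0.05 and -0.0637. Of the 9 genes often mutated in Diamond-Blackfan anaemia, a failure of red cell formation, 6 were lower in SK-MEL-28 (median -0.0617) and 7 in A375 (median -0.0186). No gene of these groups was called in the edgeR fit over both lines.

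Genes around the family gave these values. FAU, which encodes RPS30 fused to a ubiquitin-like protein, had a ratio of 0.0485 in SK-MEL-28 against 0.0645 in A375. Of 6 listed paralogues, 4 had lower levels with siLINC00622 in SK-MEL-28 (median -0.0611) and 2 in A375 (median 0.0237). The paralogue RPL26L1 was higher in both lines, at 0.31 and 0.40, while its parent RPL26 had -0.13 and -0.30. In SK-MEL-28 siNC and siLINC00622, RPL26L1 had 959 and 1219 counts and RPL26 had 967 and 903. In A375 siNC and siLINC00622 they had 1030 and 1570 counts against 1073 and 1010. How reads that fit both genes were placed is not given in the sources used here, so this contrast is uncertain. In the edgeR fit RPL26L1 had an adjusted p of 0.1767, short of the threshold. RPS27L, a target of p53, had -0.19 in SK-MEL-28 against 0.40 in A375. RPL39L had -0.10 and -0.50. Of 20 listed genes of translation elongation and other TOP messages, 15 were lower in SK-MEL-28 (median -0.0303) and 9 in A375 (median 0.0216), and 0 were called by edgeR. The lowest of them in both lines was NPM1, a nucleolar chaperone of ribosome assembly, at -0.52 and -0.48 (edgeR adjusted p = 0.05039, just short). EEF1A1, the elongation factor that brings tRNA to the ribosome, had -0.10 and 0.15. Of the 77 mitochondrial ribosomal protein genes, 33 (42.86%) were lower in SK-MEL-28 (median 0.0277), where 50.5% of all genes were. In A375, 46 (59.74%) were lower (median -0.0314), where 49.3% of all genes were. These medians lay on the opposite sides of 0 from those of the cytosolic family, but close to 0. The difference between the 2 families was not tested. Of 14 listed regulators of TOP genes, 8 were lower in each line, and 0 were called by edgeR. MTOR itself had 29.95 and 20.82 FPKM in SK-MEL-28 (log2 ratio -0.51) and 13.03 and 10.53 in A375 (-0.30), and LARP1 had 0.18 and -0.0694.

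The start of a gene and its ratio were set side by side. The 46 genes with the run of pyrimidines at a listed start had medians of -0.0545 in SK-MEL-28 (39 lower) and 0.0247 in A375 (17 lower). The 16 genes with a listed start but no run there had medians of -0.054 (11 lower) and 0.0354 (6 lower), and the 15 with no listed start -0.0673 and -0.0176. In SK-MEL-28 the medians of the 3 groups thus lay close together. Several of the 16 had a run near the listed start but not at it, such as RPS28 at position 2, RPL10A at position 4 and RPL4 at position 6. The groups therefore do not separate genes with a tract from genes without one, and nothing about the tract follows from their medians. The study listed 2 siRNAs against LINC00622, and which was used for the sequenced cells is not given in the sources used here. The 7 target bases that pair with the seed of the first guide, GTGAGAA, occurred in the longest annotated 3' UTR of 4 of the 77 genes (5.19%, other genes 14.6%). Those of the other, ATTGACT, occurred in 3 (3.9%, other genes 11.6%). The 4 were RPL4, RPL32, RPS19 and RPS24, with ratios in SK-MEL-28 of -0.26, -0.11, 0.0225 and -0.0782, and the 3 were RPL18, RPL31 and RPL37, with -0.0483, -0.0828 and -0.0673. In A375 the ratios of RPL4, RPL32, RPS19 and RPS24 were 0.0186, 0.0717, -0.0219 and -0.0082. Those of RPL18, RPL31 and RPL37 in A375 were -0.0283, 0.0008 and 0.0493. Of these 7, RPL4 alone was past 1.2-fold, and only in SK-MEL-28. Whether the seed matches bear on these ratios was not tested.

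The second comparison is between the lines. It uses the same 4 libraries, and the 2 libraries of a line are 1 line under different siRNAs, so its test measures the spread between these libraries and not between cultures. In the edgeR fit 55 of the 77 genes were higher in A375 and 3 were higher in SK-MEL-28. Over all genes tested, 34.4% were called higher in A375 and 33.3% higher in SK-MEL-28. The median log2 difference of the family, A375 over SK-MEL-28, was 0.36 (1.28-fold), and the 40S genes (26 of 31 higher in A375, 0 lower, median 0.41) lay above the 60S genes (29 of 46 higher, 3 lower, median 0.30). Without a fit, the median difference of the family was 0.30 in the siNC pair and 0.41 in the siLINC00622 pair. With scaling by library totals the median of all genes in the siNC pair moved from 0.0224 to 0.1995, and that of the family from 0.2968 to 0.4772, so the family lay above all genes on both scales. The order of levels was much alike in the lines: the log2 FPKM of the siNC libraries had r = 0.973 and rho = 0.94 over the 77 genes.

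The largest difference was that of RPS25, a 40S protein used by viral internal ribosome entry sites. RPS25 had 140.7 and 130.9 FPKM in SK-MEL-28 against 515.8 and 551.5 in A375, a 3.49-fold difference (log2 1.81 ± 0.0892 SE, edgeR adjusted p = 4.555e-06). RPSA, the laminin receptor precursor at the back of the 40S subunit, had 194.6 and 180.3 FPKM in SK-MEL-28 against 502.6 and 522.8 in A375 (log2 1.28, edgeR adjusted p = 1.236e-05). RPL32 had 78.2 and 71.84 FPKM against 200.2 and 209.1 (log2 1.28). RPS15A, one of the low genes, had 4.04 and 4.34 FPKM against 10.63 and 9.33 (log2 1.08). RPL36A, also low, had a log2 difference of 0.95. After TMM the first 3 of these genes were more than 2-fold higher in A375 in both the siNC and the siLINC00622 pair. RPS15A and RPL36A were short of this in the siLINC00622 pair (log2 0.94 and 0.88). In FPKM both A375 libraries lay above both SK-MEL-28 libraries for each of these genes. The value of RPSA leaves out its 10 listed pseudogenes, which held 6504 and 5312 counts in SK-MEL-28 against 1234 and 1370 in A375. Counting them with RPSA would make its difference smaller, so the 2-fold statement holds for the counts of RPSA alone. RPS6 had a log2 difference of 0.87 (edgeR adjusted p = 6.163e-05).

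Against the rest of the family, 3 genes of the 60S subunit were higher in SK-MEL-28. RPLP2, an acidic protein of the P stalk, had 514.6 and 529.4 FPKM in SK-MEL-28 against 278.9 and 283.5 in A375, 2.09-fold higher in SK-MEL-28 (log2 A375 over SK-MEL-28 -1.06 ± 0.0747 SE, edgeR adjusted p = 2.284e-05). Its partners in the stalk were not: RPLP0 was higher in A375 (log2 0.45, edgeR adjusted p = 0.003076) and RPLP1 was not called (0.14, edgeR adjusted p = 0.1289). RPL31 had 128.4 and 120 FPKM in SK-MEL-28 against 79.06 and 78.61 in A375 (log2 -0.82). RPL37A had 95.41 and 93.87 FPKM in SK-MEL-28 against 77.66 and 82.23 in A375 (log2 -0.41). In all 3 both SK-MEL-28 libraries lay above both A375 libraries.

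The difference of a gene between the lines went with that of its neighbours on the chromosome. For each gene the median log2 difference, A375 over SK-MEL-28, was taken over the other tested genes that begin within 1 Mb of it in GENCODE 29, members of the family left out. Over the 75 genes with at least 5 such neighbours (median 23) the gene and its neighbours had r = 0.644 and rho = 0.556. The points share the same 4 libraries, and members that lie near each other share neighbours. Around RPS25 the 33 neighbours had a median of 1.32, around RPL32 the 9 neighbours 1.10 and around RPS6 the 9 neighbours 1.17. Around RPLP2 the 54 neighbours had a median of -1.05, and around RPL31 the 13 neighbours -1.03. Of the 10 genes that differed most, 9 had neighbours of the same sign, and RPL36A, with neighbours at -0.94, did not. Outside these 10 other genes also went against their neighbours, among them RPL34 (log2 0.39, neighbours -0.99) and RPL3 (log2 0.30, neighbours -0.49). How far genes outside the family follow their neighbours was not tested.

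**Figure D5:**
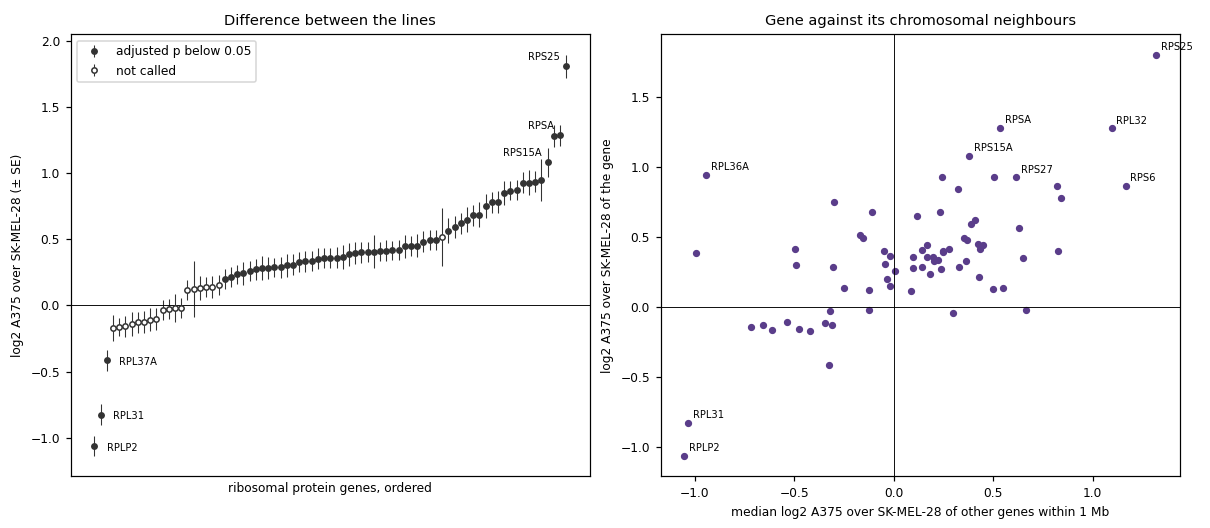
Left, log2 difference A375 over SK-MEL-28 of each of the 77 genes from the edgeR fit with its standard error, filled where the adjusted p is below 0.05 (58 genes). Right, the same difference (vertical axis) against the median difference of the other tested genes within 1 Mb (horizontal axis) for 75 genes, with RPS25 and RPL32 at the upper right and RPLP2 and RPL31 at the lower left.

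Listed pseudogenes also differed between the lines, and not always with their parents. RPSAP47 had 3419 and 2741 counts in SK-MEL-28 against 22 and 20 in A375, and RPSAP15 had 2358 and 1907 against 186 and 171, while RPSA itself was higher in A375. RPS2P5 went the way of RPS2, with 3959 and 3753 counts in SK-MEL-28 against 14195 and 16786 in A375. RPS28P7 had 1890 and 2025 counts in SK-MEL-28 against 307 and 331 in A375, where RPS28 was higher in A375 (log2 0.29). Reads that fit a parent and its copy equally well cannot be placed from the table, so the values of RPSA, RPS2 and RPS28 carry that uncertainty. MYC, a transcription factor that drives ribosomal protein genes, had 5962 and 6740 counts in SK-MEL-28 against 606 and 667 in A375, the reverse of the family, and its part in these levels was not tested.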

How the data were processed

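RNA-seq was done on 4 libraries, 1 for each line and siRNA. The deposited table lists per gene the count, CPM, FPKM and TPM that the authors made from poly(A)-selected libraries. The submitters' processing notes name HISAT, HISAT2, TopHat2 and Bowtie2 and the build hg19, and the counting tool and its handling of multiply mapped reads are not given in the sources used here. Counts were the main unit. CPM gave the library totals, FPKM the levels per length, and FPKM and TPM (log2 with a pseudocount of 1) were alternatives.

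Ratios within a line were log2 with a prior count of 2 after TMM, for genes that reached 10 counts in either library, with 95% Clopper-Pearson intervals. Both fits used edgeR 4.0.16 in R 4.3.3 (quasi-likelihood, line and treatment as terms, Benjamini-Hochberg over all genes, threshold 0.05), and DESeq2 1.42.0 and limma 3.58.1 were alternatives. The ratios with their intervals and the fits of siLINC00622 against siNC were tried on simulated data, limma there on per-million values in place of FPKM. The changes planted for the fits were at least log2 0.58 in size, larger than any ratio of the family. The fit between the lines was not tried on simulated data. Coordinates come from matching the 77 gene identifiers to GENCODE 29 and start sequences from RefSeq (GRCh38.p14), neither of them the authors' build. Genes were named by fixed rules: those with a listed role, the 5 highest and lowest in level or ratio, and those with the smallest p. The pseudogenes, chromosomal neighbours and joined genes that are named were chosen after values were seen. The members, lists and rules were chosen with earlier results of these data known. Single values of some genes are not reported here, and these genes stay in the counts and medians.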

Additional observations from a re-analysis of the deposited data

Results flagged for a closer look

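In 29 of the 77 genes the 95% counting intervals of the log2 ratio, siLINC00622 over siNC, lay on opposite sides of 0 in the lines, and the medians of the family did too (-0.0595 in SK-MEL-28 and 0.0197 in A375). Of all 14721 genes with at least 10 counts in each line, 6.4% had intervals on opposite sides of 0, and of the 902 with at least 5000 counts in each library 18.3% did, a group that held all 29 of these genes. With 1 library per condition the difference between the lines was not tested. In 28 genes the ratio was lower in SK-MEL-28 and higher in A375, as in 3.85% of all genes and 9.87% of the 902. The pairs that follow, of 27 of the 29 genes, give SK-MEL-28 first and A375 second. Among the 60S genes, RPL13A had -0.026 and 0.1529, RPL11 -0.0617 and 0.1377, RPLP0 -0.1202 and 0.1283, RPL3 -0.14 and 0.122, RPL21 -0.1494 and 0.1144, RPL41 -0.1978 and 0.0792, RPL6 -0.2488 and 0.0197, and RPL29 -0.1751 and 0.0693. In other 60S genes, RPL32 had -0.1085 and 0.0717, RPL23 -0.0727 and 0.0986, RPL15 -0.0652 and 0.0942, RPL27A -0.0674 and 0.0898, RPL12 -0.0848 and 0.0602, RPL7A -0.0836 and 0.0516, and RPL10A -0.0485 and 0.0833. The narrowest gaps of the 60S genes were those of RPL37 with -0.0673 and 0.0493, RPL13 with -0.0339 and 0.0798, RPL27 with -0.0418 and 0.0539, and RPLP1 with -0.0285 and 0.0297. Among the 40S genes, RPS27 had -0.1489 and 0.1174, RPS4X -0.1913 and 0.0512, RPS25 -0.091 and 0.1056, RPSA -0.0963 and 0.0659, RPS3A -0.1135 and 0.0477, RPS18 -0.074 and 0.0533, and RPS3 -0.0315 and 0.0311. The gene that went the other way was RPS29, with 0.1766 and -0.0948.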

How the results depend on the processing

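The medians and the counts of lower genes kept their direction under every alternative run, and no gene of the family was called in the fit of siLINC00622 against siNC under any of them, although the count of all genes called was 75 in the main edgeR fit, 305 with DESeq2, 53 with DESeq2 size factors, 121 with no filter on low counts, 86 with pseudogene counts added, 1 with library totals, 1 with limma and 0 with no replicate block. The block by line is the pairing, since the libraries of a pair come from the same line. Without it, 53 genes of the family were called between the lines in place of 58, and over all alternatives 53 to 64. Genes past 1.2-fold lower in SK-MEL-28 numbered 0 with DESeq2 size factors, with centring on the median of all genes and with pseudogene counts added, and 2 with TPM, where RPL6 (-0.2721) joined RPL4 (-0.288). In A375 they numbered 1 among genes with at least 1000 counts in each library, an alternative chosen after seeing the data, as was adding pseudogenes to the fits. The median of the family, A375 over SK-MEL-28, was 0.4772, 0.4728 and 0.549 in the siNC pair with library totals, FPKM and TPM. In the siLINC00622 pair it was 0.5774, 0.5636 and 0.6667, and 0.374 after centring. With library totals, FPKM and TPM the median of all genes also rose, from 0.0224 to 0.1995, 0.1397 and 0.2484 in the siNC pair. In the siLINC00622 pair the median of all genes rose from 0.0392 to 0.2003, 0.1357 and 0.2581. Part of the shift of the family from the main run was thus shared by the median of all genes. RPL8 between the lines turned to 0.0079 with library totals and with limma. The share of counts was 4.039%, 3.807%, 5.614% and 5.714% of the listed genes and 4.158%, 3.916%, 5.762% and 5.863% with pseudogenes, in the order SK-MEL-28 siNC, siLINC00622, A375 siNC, siLINC00622. Each line alone, or each siRNA alone, gives a value with no test.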
